A study of Homo sapiens with 2 samples.

Results

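Heat shock proteins and their DNAJ co-chaperones were compared between L-428 cells with a knock-down of PRAME and L-428 cells with a control vector. The members were all probe sets on the arrays whose annotation gave 1 gene symbol starting with HSPA, HSPB, HSPD, HSPE, HSPH, HSP90 or DNAJ, or the symbol HSF1 or HSF2. This gave 172 of 54675 probe sets, for 74 of the 19775 genes with such a symbol. HSF2 had no probe set with 1 symbol. HSPA1A, HSPA1B and HSPA8, the main inducible and constitutive HSP70 genes of the cytosol, had only probe sets that carried several symbols, and no values are given for the 14 probe sets of this kind. The symbols also took in 5 noncoding genes next to chaperone genes, and HSPBP1 and HSPBAP1, which encode binding partners and not small heat shock proteins.

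L-428 is an established cell line from Hodgkin lymphoma, and PRAME is a cancer testis antigen. The control cells carried the vector pcDNA6.2-GW/EmGFP-miR-neg and the knock-down cells the vector pcDNA6.2-GW/EmGFP-miR-PRAME. Both cell populations were therefore transfected. Vectors of this kind express a green fluorescent protein and an inserted artificial microRNA from a polymerase II promoter. The labels call the control vector empty, although its name ends in miR-neg, and what it holds in place of the PRAME sequence is not given in the sources used here. Whether the stable transfectants were clones or pools is not given in the sources used here. Each condition was measured on 1 HG_U133PLUS2.0 array without replicates, so no test was possible and all differences are described by size only. The cell line is L-428 by the labels of both samples and by the paper, although the design text of the series mentions L-540 and another array type. The files hold as many probe sets as HG_U133PLUS2.0 has.

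The signal of PRAME itself was 2115 with the control vector and 1251 with the knock-down vector, a log2 ratio of -0.80 after centering. All 6 markers of Hodgkin and Reed-Sternberg cells were above the filter, which was set on the mean of both arrays, with summed signals of 27557 and 28376. Of the B cell markers, 3 of 5 were above the filter, with summed signals of 582 and 779 over the list. The 3 T cell markers and the 3 myeloid markers were all below the filter, and their summed signals were 139 and 131 (T cell) and 91.1 and 122 (myeloid). In RNA from a whole culture, fewer cells that express a gene and less RNA of this gene per cell cannot be told apart.

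Heat shock proteins bind unfolded proteins and help them to fold, to cross membranes or to be degraded. HSP70 proteins (HSPA) cycle between ATP and ADP while they hold a client. DNAJ proteins deliver clients and start ATP hydrolysis by their J domain, whereas HSP110 proteins (HSPH1, HSPA4, HSPA4L) release ADP and reset the cycle. HSP90 proteins act later on clients such as kinases and steroid receptors, and HSPD1 with HSPE1 forms the folding chamber of mitochondria. Under stress, the transcription factor HSF1 binds heat shock elements, which are inverted repeats of the unit GAA, and many genes of these families are then transcribed. Malignant cells often contain high amounts of heat shock proteins.

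The unit of all levels below is the MAS5 signal intensity on a linear scale, and the first value of each pair is from the control cells and the other from the knock-down cells. Log2 ratios are those of knock-down over control cells after subtraction of the median of all kept probe sets, so a negative value means a lower signal after knock-down. Probe sets with a mean signal of at least 97.7, the median of the arrays, were kept. Where several probe sets of a gene were kept, the brightest of them represents the gene. Signals of different genes are not comparable with each other because probes differ in their binding.

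Most chaperone genes differed little between both cell populations. Of the 74 genes, 56 were measured above the filter with 127 probe sets. The knock-down cells had at least 1.5-fold lower signals (a log2 ratio of -0.58 or below) for 4 of the 56 genes (7.14%), compared with 5.42% of the 11794 genes measured on the arrays. The 4 genes were DNAJC18, DNAJC7, HSPH1 and DNAJC24. Signals were at least 1.5-fold higher for 2 genes (3.57%), DNAJB13 and HSPB6, compared with 7.54% of all genes. None of the 56 genes passed 2-fold, a threshold passed by 0.729% of all genes in the lower and by 1.73% in the higher direction. These shares of the members lie near the background.

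The split between lower and higher genes moved with the scaling of the arrays. It was 4 to 2 after centering on the median, 3 to 4 without centering, 2 to 3 after quantile normalization and 3 to 3 after subtraction of a loess curve. Over single probe sets, 11 of 127 (8.66%) were past the 1.5-fold threshold in the lower direction and 3 (2.36%) in the higher direction. The shares among all 22379 kept probe sets with 1 symbol were 6.54% and 7.38%. Several of the 11 probe sets belong to the same gene.

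The median log2 ratio of the 56 genes was -0.075 with quartiles of -0.28 and 0.23, and that of all genes was -0.007 with quartiles of -0.23 and 0.23. Below 0 were 33 of the 56 genes (58.9%), compared with 51.0% of all genes. At mean signals of at least 1000, the median was -0.13 for 35 members and -0.064 for all 5167 genes. Under 1000, it was 0.23 for 21 members and 0.059 for all 6627 genes. The members were thus below the background at high signals and above it at low signals. The values over all 56 genes mix both. The log2 ratios of the members had an SD of 0.37 across genes, and those of all genes an SD of 0.41. The families differed in their medians, which were -0.091 for the 37 measured DNAJ genes and 0.034 for the 18 measured genes of the HSP families and HSF1, and this difference was not tested.

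**Figure D1:**
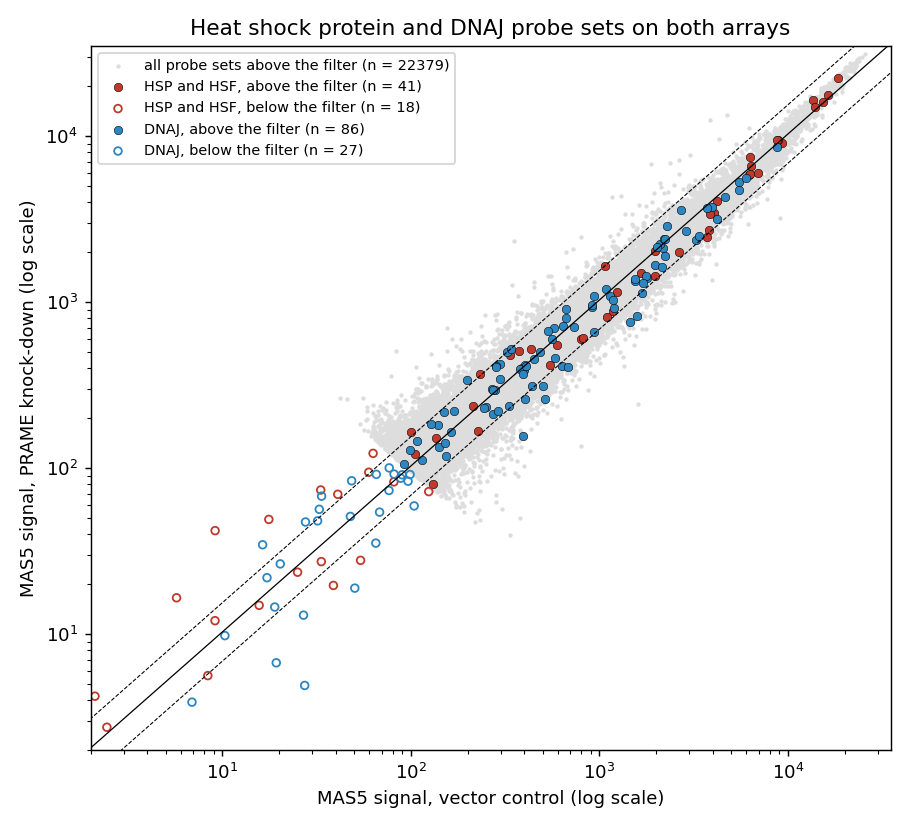
MAS5 signals of the member probe sets in control cells (horizontal, log scale) and PRAME knock-down cells (vertical, log scale), with HSP and HSF probe sets in red, DNAJ probe sets in blue, open points below the filter and other kept probe sets with 1 symbol in grey. Most filled points lie between the dashed lines at 1.5-fold around the centered line of equal signals, the furthest below belongs to DNAJC4 (log2 ratio -1.37), and points below the filter scatter more widely.

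The promoters of these genes were searched for heat shock elements because the elements are the sequences by which HSF1 acts on the family. RefSeq windows of 300 bases (GRCh38.p14, 250 bases before to 50 bases after a transcription start) were available for 66 of the 74 genes. A pair of facing units, GAANNTTC or TTCNNGAA on either strand, was present in the windows of 19 genes (28.8%) and of 16.2% of all 27305 genes in this table. A run of 3 alternating units (GAA and TTC, each 2 bases apart, and thus containing the pair) was present for 6 genes (9.09%) and for 0.608% of all genes. The 6 genes were DNAJA1, DNAJB6, HSP90AA1, HSP90AB1, HSPA6 and HSPD1. Stretches of 80 bases are shown for 5 of them, written from 5′ to 3′ on the strand of the gene, with the runs of units in capitals.
HSP90AA1 (chr14:102087087-102087166, minus strand): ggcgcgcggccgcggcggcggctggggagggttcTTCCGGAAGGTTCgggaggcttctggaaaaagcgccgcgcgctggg
HSP90AB1 (chr6:44247771-44247850, plus strand): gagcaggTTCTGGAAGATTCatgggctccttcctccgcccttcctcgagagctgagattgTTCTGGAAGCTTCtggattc
HSPD1 (chr2:197500011-197500090, minus strand): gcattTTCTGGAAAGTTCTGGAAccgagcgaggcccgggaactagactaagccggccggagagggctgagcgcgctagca
HSPA6 (chr1:161524432-161524511, plus strand): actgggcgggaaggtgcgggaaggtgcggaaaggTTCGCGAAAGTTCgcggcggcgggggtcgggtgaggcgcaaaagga
DNAJB6 (chr7:157336839-157336918, plus strand): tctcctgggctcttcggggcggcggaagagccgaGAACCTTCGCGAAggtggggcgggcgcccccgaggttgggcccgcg
The HSP90AB1 stretch holds a run at either end, and the run of HSPD1 is longer than 3 units.

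Genes with the pair alone are shown for comparison, because DNAJA4 had among the highest and HSPA4L and DNAJB1 among the lowest log2 ratios of the genes with an element. Here the pairs are in capitals.
DNAJA4 (chr15:78264454-78264533, plus strand): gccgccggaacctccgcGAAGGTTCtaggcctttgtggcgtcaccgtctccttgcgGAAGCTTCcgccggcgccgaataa
DNAJB1 (chr19:14518416-14518495, minus strand): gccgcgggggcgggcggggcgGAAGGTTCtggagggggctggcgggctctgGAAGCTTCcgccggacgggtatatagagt
HSPA4L (chr4:127782116-127782195, plus strand): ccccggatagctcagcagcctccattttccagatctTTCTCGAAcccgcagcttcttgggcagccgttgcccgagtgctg
DNAJA4 and DNAJB1 have a similar arrangement with several pairs close to the start, and HSPA4L has 1 pair in the stretch shown. A match of these letters is a description of the sequence and does not show binding of HSF1.

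Of the 6 genes with 3 units, all but DNAJA1 had log2 ratios above 0. After quantile normalization, HSP90AA1 and HSPA6 were below 0 as well. The log2 ratios of the 6 genes ranged from -0.059 for DNAJA1 to 0.36 for DNAJB6, with a median of 0.12. None of the 6 passed 1.5-fold. The 8 measured genes with the pair alone had a median of -0.21 and ranged from -0.47 for HSPA4L to 0.67 for HSPB6. The 36 measured genes with a window but without either motif had a median of -0.10 and ranged from -0.99 to 0.73. HSPE1 (log2 ratio 0.016) was among these 36, although it shares a promoter region with HSPD1, because only its own window was searched. Elements outside the windows were not counted. The ranges of the 3 groups overlapped. DNAJC18, DNAJC7 and HSPH1, the lowest of the measured genes with a window, had neither motif in these windows.

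**Figure D2:**
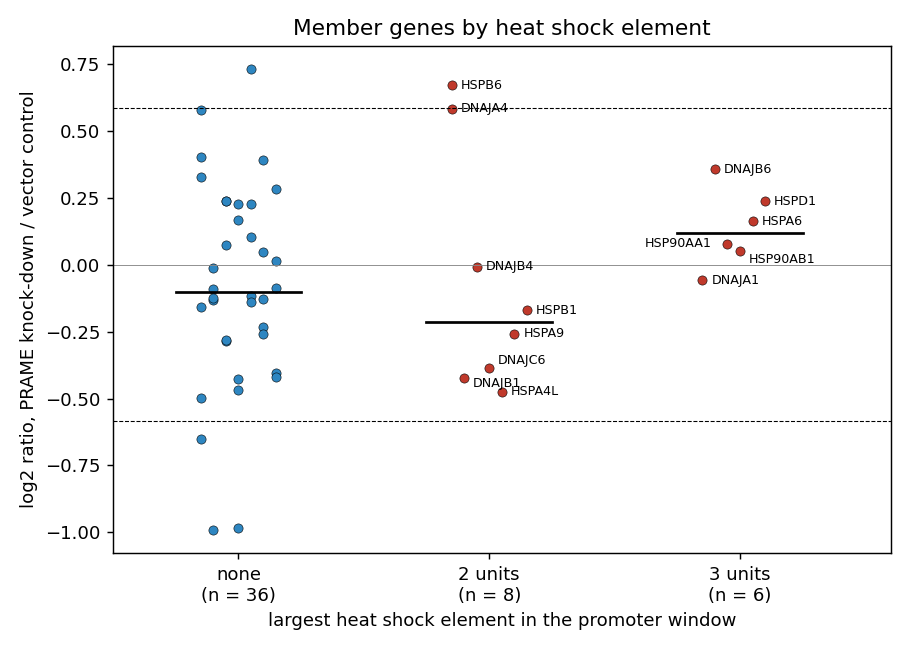
Log2 ratios of the measured member genes by the largest heat shock element in their promoter windows, with black bars for the medians and dashed lines at 1.5-fold. The 6 genes with 3 units lie between -0.059 and 0.36, inside the range of the 36 genes without either motif.

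HSF1, the regulator of the family, had nearly equal signals in both cell populations. The probe set with the highest signal gave 1977 and 2034, a log2 ratio of -0.003. The other gave 334 and 481 with a log2 ratio of 0.48. The probe sets of HSF1 thus had a range of 0.48, compared with a median range of 0.39 over all genes with several kept probe sets.

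The list of heat-inducible genes contained 12 measured members, apart from HSPA1A, HSPA1B and HSPA8. Of these, 6 were below and 6 above 0, with a median of 0.004. HSPH1 was the only one that passed 1.5-fold, and it was lower in the knock-down cells. The sign of this median was not stable. It was -0.039 after quantile normalization, -0.016 after the loess curve and -0.091 without the filter, which also changed the centering.

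Signals of the cytosolic HSP90 genes were similar in both cell populations. HSP90AA1, the inducible cytosolic HSP90, had signals of 16228 and 17675 (log2 ratio 0.078), and its 4 probe sets ranged from -0.071 to 0.22. HSP90AB1, the constitutive cytosolic form, had signals of 8852 and 9475 (log2 ratio 0.053), and its 3 probe sets ranged from -0.14 to 0.056. HSP90B1, the HSP90 of the endoplasmic reticulum, had the highest log2 ratio of the 3 genes with signals of 1067 and 1643. Its log2 ratio of 0.58 corresponds to 1.49-fold and lies just under the threshold. The other probe set of HSP90B1 gave 391 and 399 with a log2 ratio of -0.015, so the higher value rests on 1 probe set. Both probe sets have the ending _x_at, and such probe sets can bind related transcripts.

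The chaperonin genes of mitochondria were not lower after knock-down in their representing probe sets. HSPD1, the subunit of the folding chamber, had signals of 18514 and 22517 (log2 ratio 0.24), while its kept probe sets reached down to -0.49. HSPE1, which forms the lid, had signals of 6343 and 6616 (log2 ratio 0.016). Both genes are transcribed from a shared promoter region. The range over the kept probe sets of HSPD1, 0.73, was larger than the difference between the log2 ratios of both genes.

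All probe sets of the HSP110 group had lower signals in the knock-down cells. The 3 genes HSPH1, HSPA4 and HSPA4L act as nucleotide exchange factors of HSP70. Their 9 kept probe sets had log2 ratios between -0.75 and -0.28 with a median of -0.47, compared with 59.1% of all member probe sets and 52.0% of all probe sets with 1 symbol that were below 0. At least 1.5-fold lower were 2 of the 9, compared with 6.54% of all probe sets with 1 symbol, and both belong to HSPH1. The 9 come from 3 genes, and probe sets of one gene are not independent. The lowest of the 9, a probe set of HSPH1, had a mean signal close to the filter. Some of the 9, from HSPA4 and HSPH1, have the ending _x_at. Without the endings _s_at, _x_at and _a_at, the median of the 3 genes was -0.47.

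HSPH1 (HSP105) had signals of 3743 and 2456, which was 1.57-fold lower (log2 ratio -0.65). It ranked low among the 1000 probe sets of similar mean signal, of which 2.20% were lower. Its other probe sets had signals of 1181 and 886 (log2 ratio -0.46) and of 131 and 80.1 (log2 ratio -0.75). After quantile normalization or the loess curve, HSPH1 had a log2 ratio of -0.57 and stayed just under 1.5-fold.

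HSPA4 (APG-2) had signals of 4067 and 3450 in its representing probe set, with a log2 ratio of -0.28. The other probe sets of HSPA4 gave 3809 and 2710 (log2 ratio -0.54), 1966 and 1449 (log2 ratio -0.49), and 548 and 422 (log2 ratio -0.42). HSPA4L (APG-1) had signals of 1103 and 820 (log2 ratio -0.47), and its other probe set had signals of 802 and 597 with the same log2 ratio. The log2 ratios of all 3 genes remained below 0 under each of 9 settings, the reported one and its alternatives.

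The HSP70 genes went in different directions. HSPA14, an HSP70 bound to ribosomes, had signals of 2657 and 2014 (log2 ratio -0.45), and all of its 3 probe sets were below 0. HSPA6, an HSP70 that is made almost only under stress, had signals of 105 and 121 (log2 ratio 0.16), close to the filter. Its log2 ratio was -0.034 after quantile normalization and -0.045 after the loess curve, and the other HSPA6 probe set, just below the filter, had signals of 124 and 72.3. No direction can be given for HSPA6. Of the 4 genes for cytosolic and nuclear HSP70 that had probe sets with 1 symbol, 2 were above the filter. HSPA1A, HSPA1B and HSPA8 are not among these 4.

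HSPA5 (BiP), the HSP70 of the endoplasmic reticulum, was higher in both of its probe sets, with signals of 6255 and 7546 (log2 ratio 0.23) and of 233 and 370 (log2 ratio 0.62). HSPA9 (mortalin), the mitochondrial HSP70, had signals of 6938 and 5989 (log2 ratio -0.26), and 3 of its 4 probe sets were below 0. HSPA13, another HSP70 of the secretory pathway, had signals of 6206 and 5874 (log2 ratio -0.12). None of these 3 genes passed 1.5-fold.

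Most small heat shock protein genes were below the filter. These proteins hold unfolded clients without ATP, and 5 of the 7 genes had no probe set above the filter. HSPB1 (HSP27) had signals of 599 and 549 with a log2 ratio of -0.17. HSPB6 (HSP20), mainly known from muscle, had signals of 101 and 165, which was 1.59-fold higher (log2 ratio 0.67). Of the 1000 probe sets nearest in signal, 82.9% had a lower log2 ratio than HSPB6. At signals from 97.7 to 136, log2 ratios had a median of 0.21 and an SD of 0.54. HSPB6 passed 1.5-fold under only 3 of 7 settings, and its log2 ratio was 0.50 after quantile normalization, 0.49 after the loess curve, 0.44 with an offset of 64 and 0.58 without the filter. The partner genes HSPBP1, an exchange factor of HSP70, and HSPBAP1 had log2 ratios of 0.39 (374 and 506) and 0.23 (431 and 521).

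The DNAJA genes, which encode co-chaperones with a zinc finger, differed among themselves. DNAJA1 had signals of 8699 and 8618 (log2 ratio -0.059). DNAJA2 had signals of 3239 and 2369 (log2 ratio -0.50), and its other probe set had a log2 ratio of -0.26. DNAJA3, which acts in mitochondria, had signals of 2181 and 2112 (log2 ratio -0.091). DNAJA4 stood apart from the other 3, since all of its 4 probe sets were higher after knock-down.

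The 4 probe sets of DNAJA4 had signals of 323 and 499, 296 and 424, 284 and 410, and 150 and 217. Their log2 ratios lay between 0.48 and 0.58, which is a narrow range compared with the median range of 0.35 for the members with several probe sets. The highest value corresponds to 1.498-fold and lies just under the threshold. Only 3 members with several kept probe sets had all of them above 0, namely DNAJA4, HSPA5 and DNAJC19, a component of mitochondrial protein import with log2 ratios of 0.074 and 0.12.

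Of the DNAJB genes, 9 of 11 were measured, 5 of them below and 4 above 0. DNAJB13, known from the flagella of sperm cells, had signals of 199 and 341 and was 1.66-fold higher (log2 ratio 0.73), with 95.1% of the probe sets nearest in signal below it. DNAJB6, which prevents aggregation of proteins with polyglutamine, had signals of 2707 and 3575 (log2 ratio 0.36). DNAJB1, the classic HSP40, had signals of 1194 and 918 (log2 ratio -0.42), and its other probe set had signals of 401 and 419 (log2 ratio 0.015). The 2 probe sets of DNAJB1 thus did not show one direction.

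DNAJB2, a co-chaperone that links clients to the proteasome, had signals of 1785 and 1393 (log2 ratio -0.40). DNAJB11, a partner of BiP in the endoplasmic reticulum, had signals of 1978 and 1674 (log2 ratio -0.29). DNAJB4 was nearly equal with 912 and 936 (log2 ratio -0.007). The median of the DNAJB genes was -0.007, and it turned to 0.038 without centering, 0.067 after quantile normalization, 0.060 after the loess curve and 0.051 with the filter at the 75th percentile. No direction can be given for the DNAJB genes as a group.

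The DNAJC genes, which share little apart from the J domain, contained the largest differences of the family. Of 27 genes 24 were measured. Below 0 were 16 of them (66.7%), compared with 51.0% of all genes, and 8 were above 0. The median was -0.12. This median was -0.050 after quantile normalization, -0.054 after the loess curve, -0.077 without centering and -0.20 without the filter. At least 1.5-fold lower were 3 of the 24, compared with 5.42% of all genes. None was at least 1.5-fold higher, compared with 7.54% of all genes. Over the 60 kept probe sets of DNAJC genes, 37 were below 0 and 9 were at least 1.5-fold lower, compared with 52.0% and 6.54% of all probe sets with 1 symbol. Probe sets of one gene are not independent, and the 9 included all 3 of DNAJC18. They also included single probe sets of DNAJC4, DNAJC5 and DNAJC21, whose representing probe sets did not pass 1.5-fold.

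DNAJC18, a J protein of the membrane of the endoplasmic reticulum, had the lowest log2 ratio of all measured members. Its signals were 1459 and 757, which was 1.99-fold lower (log2 ratio -0.99), and 0.900% of the probe sets nearest in signal were lower. The other probe sets had signals of 631 and 411 (log2 ratio -0.66) and of 502 and 311 (log2 ratio -0.74). All 3 probe sets of DNAJC18 were therefore past 1.5-fold, which held for no other member with several kept probe sets.

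DNAJC7, which binds both HSP70 and HSP90 by its tetratricopeptide repeats, had signals of 1576 and 822 (log2 ratio -0.98, 1.98-fold lower). Another probe set had signals of 684 and 408 (log2 ratio -0.79). The third went in the opposite direction with signals of 340 and 520 (log2 ratio 0.57), so DNAJC7 had the widest range of all members, 1.55 on the log2 scale. DNAJC18 and DNAJC7 were at least 1.5-fold lower under each of the 9 settings.

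DNAJC24, an enzyme subunit for diphthamide synthesis on elongation factor 2, had signals of 1689 and 1144 and was 1.52-fold lower (log2 ratio -0.61). It passed 1.5-fold under only 4 of the 9 settings. DNAJC2, which forms a complex with HSPA14 at the ribosome, had signals of 3381 and 2522 (log2 ratio -0.47), close to the -0.45 of HSPA14. DNAJC22 was the highest of the DNAJC genes with signals of 128 and 185 (log2 ratio 0.48).

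Probe sets of 2 further DNAJC genes were at least 2-fold lower, although the representing probe sets were not. DNAJC5, the cysteine string protein of secretory vesicles, had signals of 664 and 808 (log2 ratio 0.24) in one probe set, of 513 and 263 (log2 ratio -1.01) in another and of 291 and 222 (log2 ratio -0.43) in a further one. DNAJC4 had signals of 394 and 157 in one probe set (log2 ratio -1.37), the lowest of all 127, whereas its representing probe set had signals of 406 and 415 (log2 ratio -0.012). The ranges of 1.25 for DNAJC5 and 1.36 for DNAJC4 were larger than for any other member except DNAJC7. Probe sets of one gene can detect different transcript variants, and their part in these values was not tested.

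**Figure D3:**
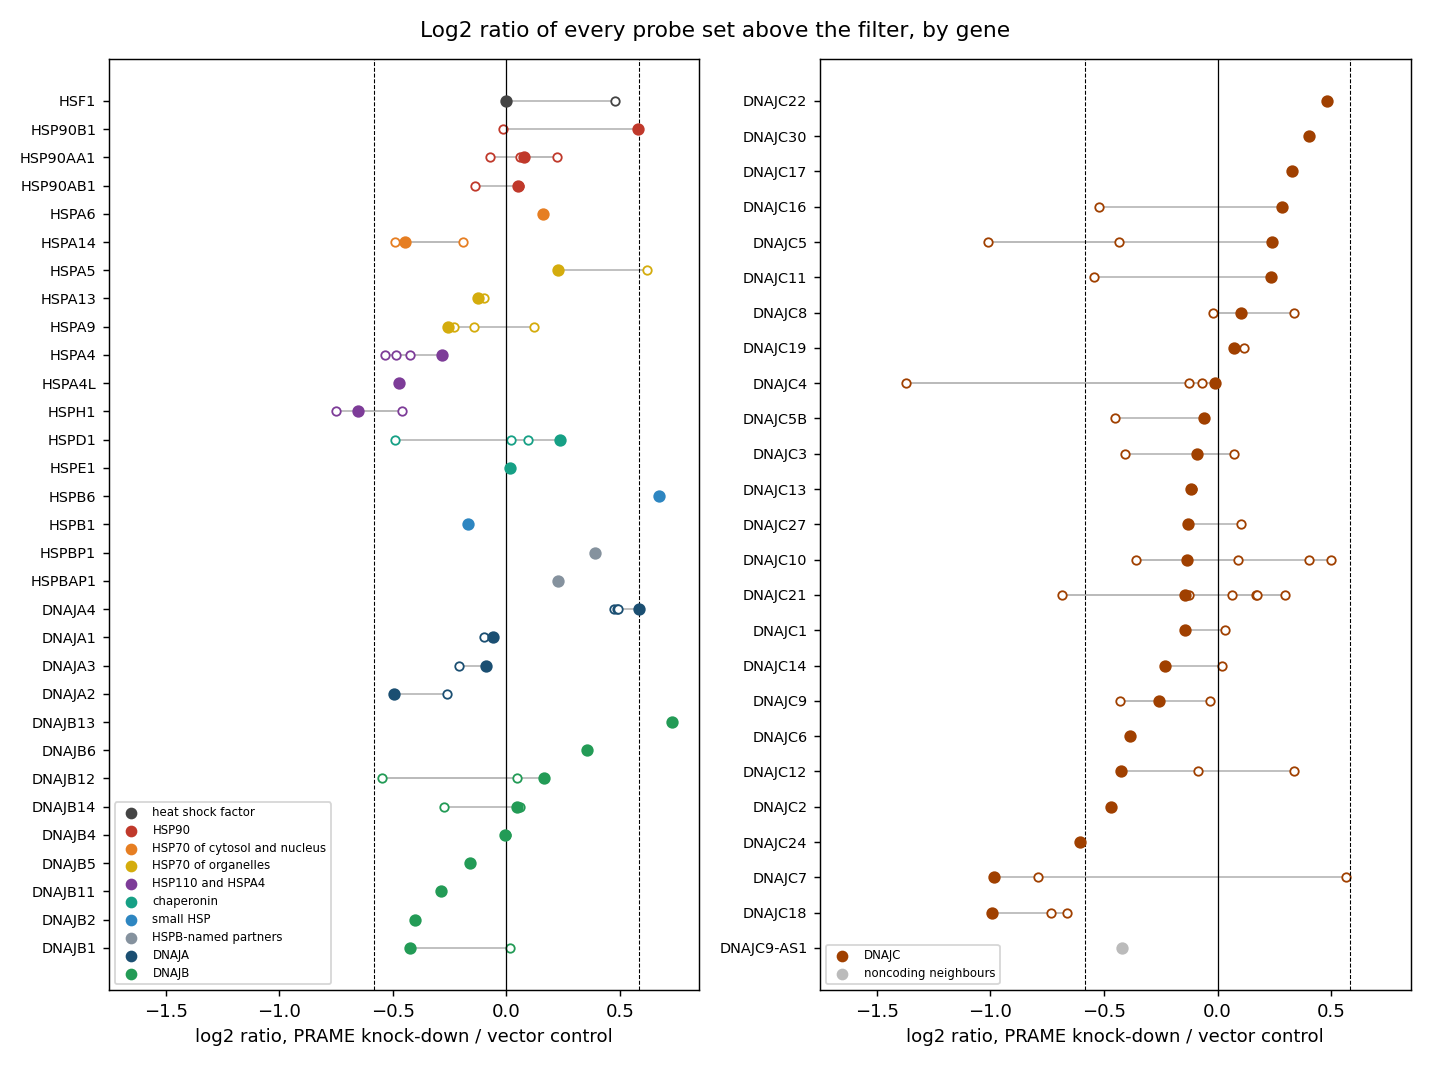
Log2 ratios of all kept probe sets of the 56 measured genes (filled points, the representing probe set, and open points, the others), with dashed lines at 1.5-fold. All probe sets of DNAJC18 and of the HSP110 group lie below 0, all of DNAJA4 lie above 0, and DNAJC7 spans from -0.98 to 0.57.

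The probe sets of a gene are the only repeated measurement on these arrays. Of the members, 38 had several kept probe sets. In 14 of them (36.8%) all probe sets were below 0, compared with 28.3% of all 5840 genes with several probe sets. In 3 of them (7.89%) all were above 0, compared with 21.2% of all genes. Neither comparison was matched for signal. The remaining 21 members had probe sets on both sides of 0. The median range over the probe sets of a gene was 0.35 for the members and 0.39 for all genes, so the probe sets of the members varied about as much as those of other genes.

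Log2 ratios also moved with the signal. Their median over all kept probe sets was 0.21 at the lowest signals, as given for HSPB6, and -0.088 at signals from 1362 to 2799, with an SD of 0.32. HSPB6 and DNAJB13 had low mean signals of 129 and 261, whereas the 4 genes at least 1.5-fold lower had mean signals above 1000. The part of the signal in these differences was not tested beyond the loess curve, after which DNAJC18, DNAJC7 and DNAJB13 were still past 1.5-fold. With an offset of 64, DNAJB13 had a log2 ratio of 0.58 and fell just short of it.

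Some members had log2 ratios close to those of their chromosomal neighbours. For each member, the median was taken over the 25 nearest measured genes on either side, and over all genes 90% of such medians lay between -0.21 and 0.18. On chromosome 5, the neighbours of HSPA4, HSPA9 and DNAJC18 had medians of -0.27, -0.34 and -0.28, and all measured genes of this chromosome had a median of -0.16. In their representing probe sets, HSPA4 (log2 ratio -0.28) and HSPA9 (log2 ratio -0.26) were close to their neighbours, while DNAJC18 differed from its neighbours by -0.71 on the log2 scale. For HSPA4 this rests on the probe set closest to 0, and the median over its 4 probe sets was -0.45. HSPA5 on chromosome 9 had a log2 ratio of 0.23 and its neighbours a median of 0.27.

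The neighbours of HSPH1 (-0.027), DNAJC7 (-0.042), DNAJC24 (-0.097) and DNAJB13 (-0.088) lay near 0. The neighbours of DNAJA4 had a median of -0.13, opposite in sign to DNAJA4 itself. Among the HSP90 genes, the neighbours of HSP90B1 had a median of 0.21, those of HSP90AA1 one of 0.16 and those of HSP90AB1 one of -0.11. Over the 56 members, Pearson's r between log2 ratio and neighbour median was 0.27 and Spearman's rho 0.25, and over all 11780 genes with neighbours the values were 0.23 and 0.24. These coefficients are descriptions across genes of the same 2 arrays, and neighbouring genes share most of their windows.

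**Figure D4:**
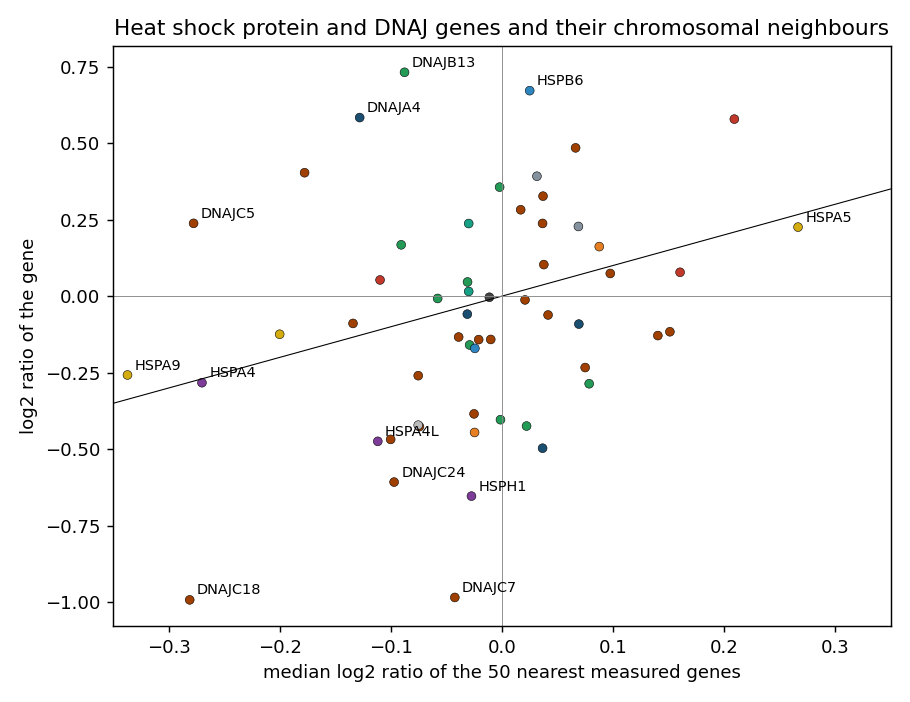
Log2 ratio of each measured member (vertical axis) against the median log2 ratio of its chromosomal neighbours (horizontal axis). HSPA4, HSPA9 and HSPA5 lie near the line of equal values, whereas DNAJC18, DNAJC7 and HSPH1 lie far below it and DNAJA4 and DNAJB13 far above it.

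Chaperones and cofactors outside these families were counted in the same way. Of 38 measured genes in a list of partner chaperones, 25 (65.8%) were below and 13 above 0, compared with 51.0% of all genes below 0. The median of the list was -0.18 and that of all genes -0.007. At least 1.5-fold lower were 2 of the 38 (5.42% of all genes), CHORDC1, a cofactor of HSP90 (5650 and 3489, log2 ratio -0.74), and SERPINH1, the collagen chaperone HSP47 (321 and 221, log2 ratio -0.59). SERPINH1 missed the threshold without centering (-0.54) and with an offset of 64 (-0.47). At least 1.5-fold higher were 4 of the 38 (7.54% of all genes), among them TRAP1, the HSP90 of mitochondria (843 and 1423, log2 ratio 0.71), and BAG2, an exchange factor of HSP70 (2196 and 3444, log2 ratio 0.60). BAG2 missed the threshold without the filter (0.51) and with the median over its probe sets (0.53). The others were CLU, a secreted chaperone (136 and 280), and UNC45A, a myosin chaperone that binds HSP90 (330 and 757, log2 ratio 1.15). UNC45A was 2.22-fold higher and the only gene of the list past 2-fold (1.73% of all genes in the higher direction). However, its other probe set had a log2 ratio of 0.36.

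The remaining 18 member genes had no probe set above the filter, and their signals lay between 2.11 and 96.6 on both arrays. They comprised the 5 small heat shock protein genes HSPB2, HSPB3, HSPB7, HSPB8 and HSPB9, both HSPA12 genes, HSPA1L and HSPA2, which are known from the testis, and DNAJB7 and DNAJB8. The DNAJC genes below the filter were DNAJC15, DNAJC28 and DNAJC5G. DNAJC15, a J protein of the mitochondrial inner membrane, had signals of at most 76.6 and 73.5. The other 4 were noncoding genes, and the only noncoding member above the filter was DNAJC9-AS1 (154 and 119, log2 ratio -0.42). DNAJC9 itself, a histone chaperone, had signals of 5505 and 4745 (log2 ratio -0.26).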

How the data were processed

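Total RNA from control and PRAME knock-down L-428 cells was hybridized to 1 Affymetrix HG_U133PLUS2.0 array each. The values deposited by the authors are linear signal intensities, background-corrected and scaled by the MAS5 method in Affymetrix Expression Console 1.1. The mean without the highest and lowest 2% was 499.9 on both arrays, and the medians were 91.9 and 109.9.

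Without the 62 control probe sets, signals were transformed to log2 values with no offset added, probe sets at or above the median mean log2 signal (27307) were kept, and log2 ratios were centered on their median (0.045). Gene symbols came from the platform annotation and were updated through the RefSeq gene table of GRCh38.p14. It lists 1 symbol for 41091 probe sets, more than 1 for 1801 and no symbol for 11777, and 41037 of the 41091 were found in the gene table. The array annotation names no genome build, so the table served for names and gene order only. Coordinates of promoters are those of RefSeq (GRCh38.p14). Of the genes that match the rule, 1 with 3 probe sets is not reported here.

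With 1 array for each condition no p-value or replicate error can be given, and precision is limited by this number of arrays. Thresholds of 1.5-fold and 2-fold were used, and each log2 ratio was ranked against those of 1000 probe sets with similar mean signals. Named were PRAME, HSF1, members past 1.5-fold, up to 4 members of each role group with the largest log2 ratios and up to 2 with the highest signals, heat-inducible members, members with probe sets at least 1 log2 unit apart, and up to 4 partner genes with the largest log2 ratios. Other members and partner genes were named after their values were seen. The members and lists were chosen with earlier results of these data known. The scripts were tested on simulated data. Python 3.11.15 was used with matplotlib 3.10.9, numpy 2.4.6, statsmodels 0.14.6 and pandas 2.3.3.

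The alternatives were no centering, quantile normalization, a loess curve (span 0.4), an offset of 64, the median over probe sets, a filter at the 75th percentile or none, and no probe sets with the endings _s_at, _x_at and _a_at. With another filter or none, log2 ratios were centered on the median of the probe sets then kept. Each such change moved the log2 ratios of all genes measured in both settings by the same amount.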

Additional observations from a re-analysis of the deposited data

How the results depend on the processing

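The median log2 ratio of the members was below 0 under all 9 settings, from -0.12 without the endings _s_at, _x_at and _a_at to -0.030 without centering. The median of all genes moved too, from -0.017 without the filter to 0.038 without centering. After quantile normalization the medians were -0.036 for the members and 0.014 for all genes. After the loess curve they were -0.038 and 0.011. The number of members at least 1.5-fold lower, 4 as reported, was 2 after quantile normalization and 7 without the filter, when 74 genes entered. The number at least 1.5-fold higher, 2 as reported, was 4 without centering, 0 with the offset of 64, 8 without the filter, 1 with the filter at the 75th percentile and 1 without the endings. The DNAJB median was -0.16 without the endings. The median of the partner chaperones was -0.077 with the filter at the 75th percentile and -0.094 without the endings. HSP90B1 was at least 1.5-fold higher under 4 of 8 settings and DNAJA4 under 3 of 8, in both cases without centering, after quantile normalization and after the loess curve. Over all genes, 2331 were at least 1.5-fold lower and 3480 higher without the filter, 273 and 254 with the filter at the 75th percentile, and 476 higher with the offset. No paired analysis was possible because each condition had 1 array. Differences at low signals are the least precise.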

Other observations

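Members of the endoplasmic reticulum, grouped after their values were seen, did not share a direction. HSPA5 had a log2 ratio of 0.23 and HSP90B1 of 0.58, whereas DNAJB11 had one of -0.29 and DNAJC18 one of -0.99. DNAJC3, an inhibitor of the kinase PERK, had signals of 731 and 709 (log2 ratio -0.089). DNAJC10, a disulfide reductase, had signals of 3964 and 3729 (log2 ratio -0.13), and its 5 probe sets ranged from -0.36 to 0.50. DNAJC1 had signals of 5957 and 5570 (log2 ratio -0.14). DNAJB12 and DNAJB14, which assist the removal of membrane proteins, had log2 ratios of 0.17 (937 and 1086) and 0.046 (2106 and 2243).

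Members that act in mitochondria were also on both sides of 0. HSPA9 had a log2 ratio of -0.26 and DNAJA3 of -0.091, while HSPE1 (0.016), DNAJC19 (0.074), HSPD1 (0.24) and DNAJC30 (0.40, signals of 664 and 906) were above 0.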
